A study of Bos taurus with 6 samples.

Results

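The deep zone (DZ) of normal articular cartilage was set against the middle zone (MZ) of the same 2 animals. The comparison used the 4 arrays labelled mid zone or deep zone, of 6 arrays in the series, and all 24016 probesets of the bovine expression array that are not manufacturer's controls, of 24128 in the value table. DZ was measured in animals 1 and 2 and MZ in the same animals, so that each zone has n = 2. Both zones came from untreated knees of skeletally mature cattle, 14 to 30 months old and graded normal, from cores of the weight-bearing femoral condyles. Cores were cut into 50 µm sections from the surface down to the calcified cartilage. DZ was the lower 30% of the sections and MZ the middle 40%, with about 200 µm discarded between them. The arrays of the superficial zone (SZ, the upper 10%) entered the fit only to help estimate the spread. Per its design text the study looked for genes whose expression differed among the zones, and the comparison here covers the step from the middle of the tissue to the layer next to mineralised cartilage and bone. Differences are given as DZ minus MZ, so that a positive value is higher in DZ.

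Articular cartilage has no vessels, and its chondrocytes live in a matrix of type II collagen and aggrecan. In the middle layer these cells are held in a resting state, and PTHrP, acting through the receptor PTH1R, restrains their maturation. Towards the bone chondrocytes can become hypertrophic: they make type X collagen, the collagenase MMP13 and alkaline phosphatase, which frees phosphate for mineral. Below lies a plate of calcified cartilage and bone, where osteoblasts, osteoclasts, vessels and marrow cells are found.

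Values are log2 expression, and pairs of values are given for animal 1 and then animal 2. The median log2 value was 4.44 to 4.46 on the 4 arrays, their lower quartile 2.71 to 2.80 and their maximum 14.02 to 14.15. Across probesets DZ correlated with MZ at r = 0.952 in animal 1 and 0.962 in animal 2, while the 2 DZ arrays correlated at 0.962 and the 2 MZ arrays at 0.971. Neither table holds detection calls, so a value near the lower quartile may be background, and a difference that starts there has an uncertain size. The description of both DZ arrays carries another code than that of the MZ and SZ arrays, and this code cannot be told apart from the zone. Control probesets for Bacillus transcripts (27 on the array) had a median of 3.61 and 3.56 in DZ, against 4.90 and 4.17 in MZ. The hybridisation controls for bacterial and phage transcripts (18) had a median of 11.12 and 10.79 in DZ, against 11.81 and 11.18 in MZ. On the DZ array of animal 1 the 6 probesets of the control bioB stood apart, at 6.49 to 7.10, against 9.24 to 9.55 in animal 2's DZ and 9.64 to 10.73 in MZ. The 3' minus 5' value, a sign of RNA quality, was 3.30 and 2.54 in DZ, against 2.23 and 2.65 in MZ for cyclophilin. For GAPDH it was 0.45 and 0.26 in DZ, against 0.92 and 0.30 in MZ. For actin it was −0.65 and −1.11 in DZ, against −0.97 and −0.65 in MZ. Both actin probesets read only 2.36 to 3.78 on the 4 arrays, near the lower quartile, so the actin value may be background. The 3' and 5' probesets of ef1a, eIF-4E and GST were not used. The part of these differences in the results below was not tested.

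Both zones read as cartilage. COL2A1, the main fibril collagen of cartilage, was at 14.02 and 14.15 in DZ, against 14.13 and 14.06 in MZ. This is at the top of the scale, where a difference can be hidden. Over the 6 COL2A1 probesets the differences ran from −0.01 to 0.93, with 0 called. ACAN, which encodes the aggrecan core, read 13.24 and 13.05 in DZ, against 13.09 and 13.27 in MZ. COMP, a matrix glycoprotein that binds collagen, was at 13.33 and 13.40 in DZ, against 12.83 and 13.50 in MZ. The zones overlapped for all 3 genes on the probesets whose readings are given. Of 16 chondrocyte identity genes 12 had a named probeset (MATN3, SNORC, SOX5 and SOX9 had none), 0 passed the test, and the median difference was −0.02.

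In limma's fit to the 6 arrays with the animal as a block, 169 probesets passed an adjusted p of 0.05, which is 0.704% of those tested. Higher in DZ were 147 probesets (0.612%) and lower 22 (0.0916%). At an unadjusted p under 0.05 there were 2385. The called probesets carried 118 gene symbols, 106 higher and 12 lower in DZ, and 31 called probesets had no symbol. When each gene was represented by its brightest probeset, 105 of 11626 genes were called (0.903%), 95 higher in DZ (0.817%) and 10 lower (0.086%). The median difference over these genes was −0.015, and it says nothing of an overall shift, as the deposited normalised arrays have nearly equal medians. The count of 169 fell to 62 without the animal block (59 higher, 3 lower), to 46 without MZ replicate 1, 12 without MZ replicate 2, 139 without DZ replicate 1 and 74 without DZ replicate 2. It was 258 without either SZ replicate.

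The 2 animals went the same way more often at large differences than over all probesets. The difference in animal 1 correlated with that in animal 2 with r = 0.487 across probesets, which are not independent replicates, and 59.4% of probesets had the same sign in both. Past a log2 difference of 1 in both animals, 484 probesets were higher in DZ in both (2.02%), 155 lower in both (0.645%) and 43 opposite (0.179%). By the brightest probeset, 292 genes were past it upwards in both animals (2.51%) and 65 downwards (0.559%). All 169 called probesets had the same sign in both animals and zones that did not overlap, which choosing them by this test favours. The plot of the animals' differences shows the genes higher in DZ reaching farther than those lower in DZ.

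**Figure D1:**
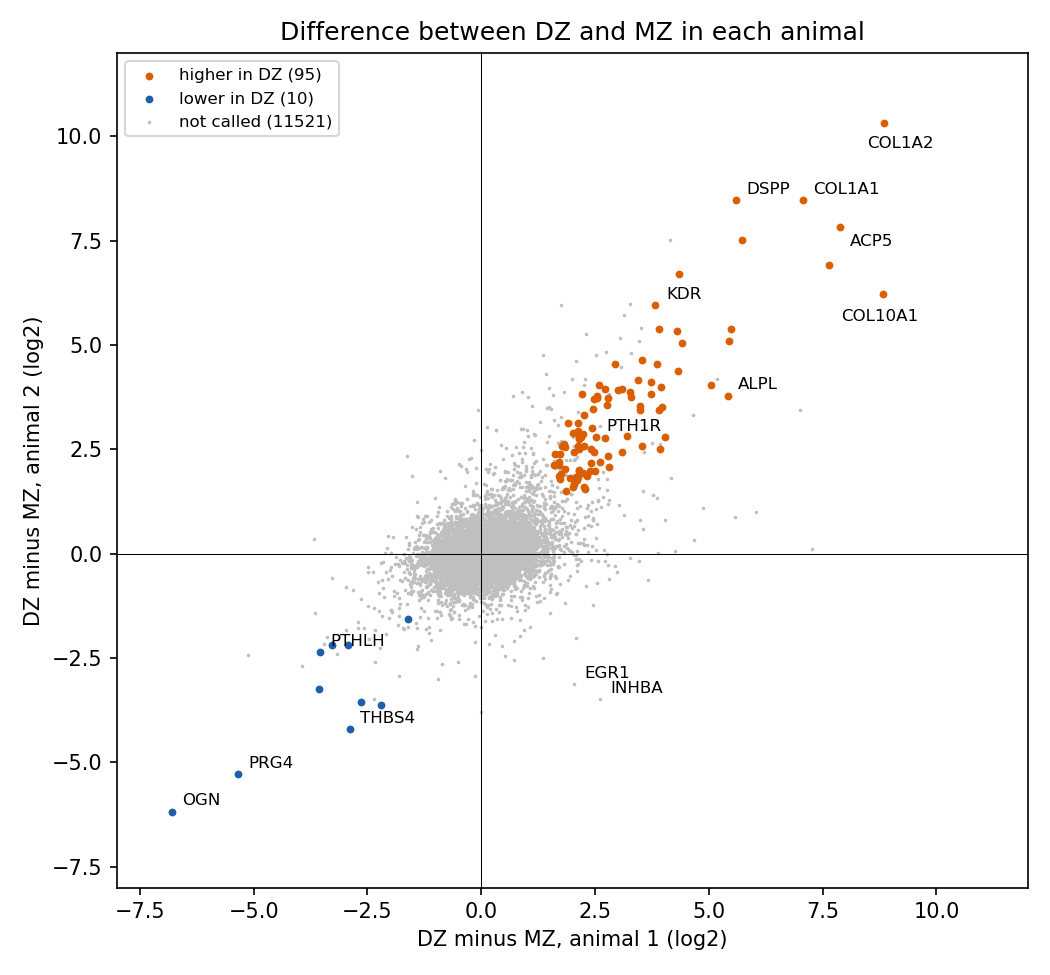
Difference between DZ and MZ (log2) in animal 1 (x axis) and animal 2 (y axis) for 11626 genes, 1 point each by the brightest probeset. Orange points are the 95 genes called higher in DZ, blue points the 10 called lower and grey points the rest. The labelled collagens COL1A2, COL1A1 and COL10A1 lie far to the upper right and OGN and PRG4 to the lower left.

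Genes of bone and hypertrophic matrix led those higher in DZ. COL1A2, a chain of bone's type I collagen, read 11.79 and 12.77 in DZ, against 2.95 and 2.46 in MZ. Its partner chain COL1A1 read 13.05 and 13.43 in DZ, against 5.98 and 4.95 in MZ, a mean difference of 7.77 (SE 0.79, limma adjusted p = 0.0215). With 1 replicate left out this difference ran from 6.49 to 9.05, and over its 4 probesets from 1.11 to 7.82, of which 3 were called. DZ thus stood near the top of the scale for both chains while the MZ arrays of COL1A2 lay at the lower quartile. ACP5, the tartrate-resistant acid phosphatase of osteoclasts, read 11.44 and 10.98 in DZ, against 3.57 and 3.15 in MZ, and the difference was nearly equal in both animals (7.87 and 7.83). Of its 4 probesets 2 were called, and the differences ran from 0.11 to 7.85. MMP13, the collagenase of hypertrophic chondrocytes, read 9.89 and 9.12 in DZ, against 2.24 and 2.19 in MZ (7.29, SE 0.46, limma adjusted p = 0.00527). COL10A1, the collagen of hypertrophic chondrocytes, read 12.34 and 9.48 in DZ, against 3.52 and 3.25 in MZ, with the larger difference in animal 1. DSPP, a phosphoprotein of dentin and bone, read 8.33 and 10.70 in DZ, against 2.74 and 2.23 in MZ, with the larger difference in animal 2.

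Other genes ranked among the first 20 with a descriptive symbol, by the smaller of the 2 animals' differences, came from several groups. LOC100337325, which the deposited annotation calls like pigment epithelium-derived factor, has no such symbol and read 9.09 and 9.89 in DZ, against 3.37 and 2.37 in MZ, and the smaller of its 2 differences, 5.72, would rank it above DSPP. The class II histocompatibility gene BOLA-DRA (5.44, but 3.59 in the dCHIP table) read 8.09 and 7.94 in DZ, against 2.61 and 2.55 in MZ, and shared the smallest limma adjusted p with PLS1 and OGN (0.00295). PLS1, an actin-bundling plastin, read 7.98 and 7.48 in DZ, against 2.53 and 2.38 in MZ. RHBDL2, a rhomboid protease, differed by 4.42 and 5.06. In these 3 genes the arrays of a zone lay within 1 log2 unit of each other, and the zones did not overlap. CD44, the hyaluronan receptor, read 6.83 and 6.62 in DZ, against 2.52 and 2.24 in MZ on its only probeset. A2M, a broad protease inhibitor of plasma, differed by 4.34 and 6.71, and PTX3, a secreted pentraxin, by 5.04 and 4.05. CDH2 (N-cadherin) differed by 3.91 and 5.39, GNG11, a G protein subunit, by 3.74 and 4.12, BRB (brain ribonuclease) by 4.30 and 5.33, and IFITM1, an interferon-induced membrane protein, by 3.73 and 3.82, but by −0.05 on the lowest of its 3 probesets.

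Of the 95 genes higher in DZ, 49 had an MZ array under its lower quartile, and 21 had both MZ arrays more than 1 log2 unit above it. The median difference of the 95 was 2.75, with a range of 1.68 to 9.58. For the 10 genes lower in DZ the range was −6.48 to −1.59 with a median of −3.02, and 7 of them had both DZ arrays more than 1 log2 unit above the lower quartile. Of the genes named here, ACP5, MMP13, ALPL, BOLA-DRA, PLS1, CD44 and PTX3 passed under every alternative that tested them, left-out arrays included.

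**Figure D2:**
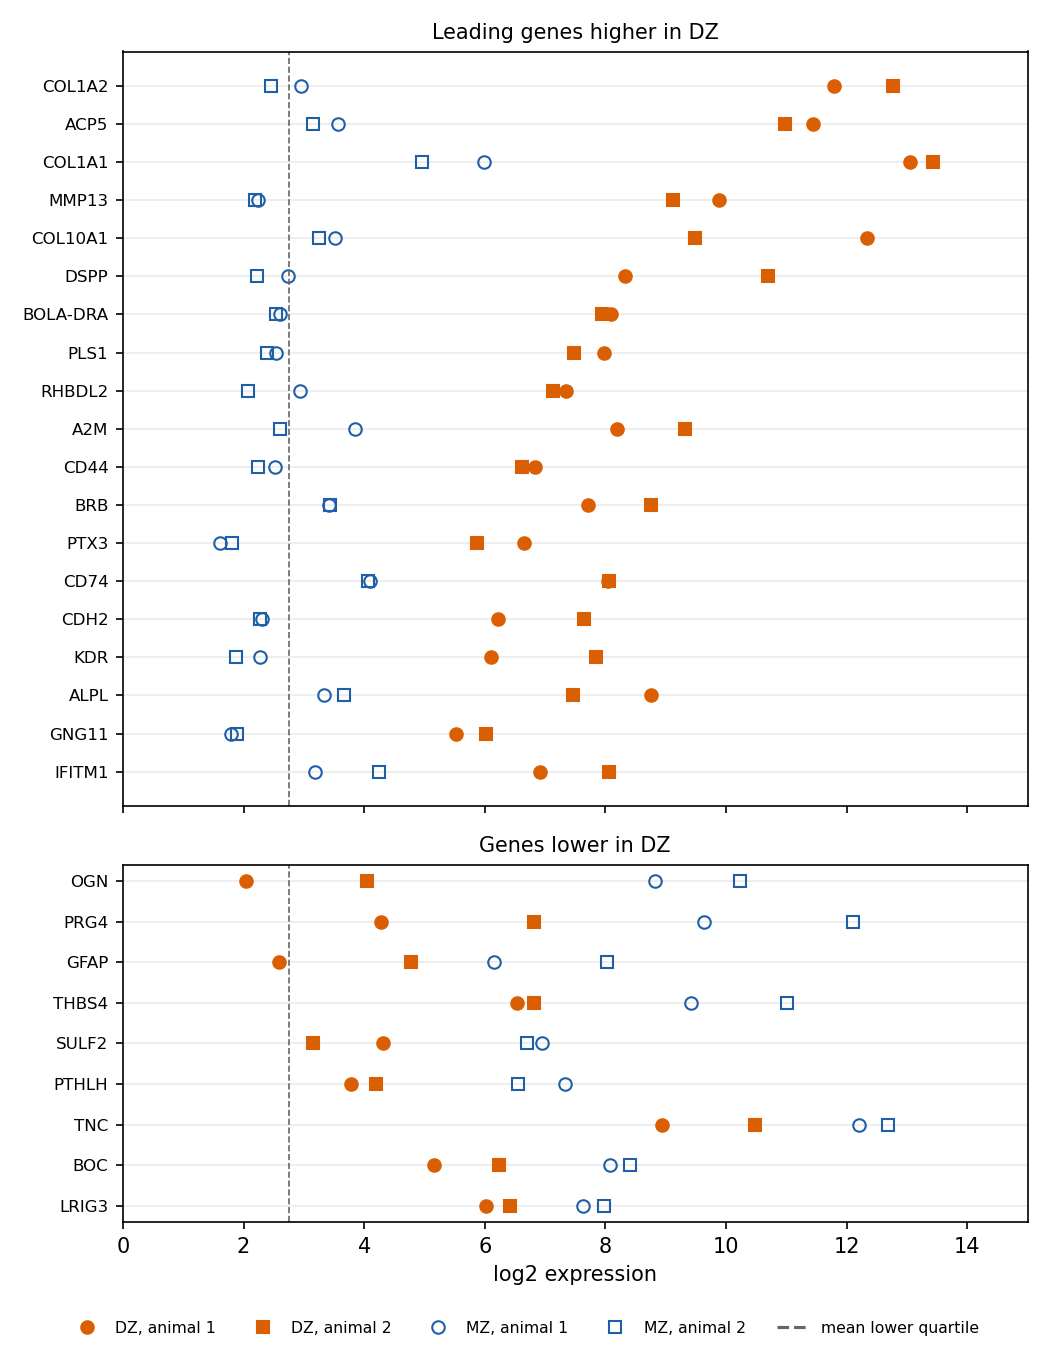
Log2 expression on each array for 19 leading genes higher in DZ (upper panel) and the 9 named genes lower in DZ (lower panel). Filled orange symbols are DZ, open blue symbols MZ, circles animal 1 and squares animal 2, and the dashed line is the mean lower quartile of the 4 arrays. No row overlaps between the zones, and many MZ symbols of the upper panel lie at or near the dashed line.

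Of 12 measured genes on the chondrocyte hypertrophy list 5 were higher in DZ, 0 were lower and 7 did not pass. That is 41.7% of the list, against 0.817% of all genes called higher. The list's median was 2.82, against −0.015 over all genes. The higher members were COL10A1, MMP13, ALPL, PTH1R and MEF2C. ALPL, the tissue-nonspecific alkaline phosphatase, read 8.75 and 7.46 in DZ, against 3.33 and 3.67 in MZ (4.60, SE 0.41, limma adjusted p = 0.0140). On its other probeset, which was not called, ALPL differed by 2.41. MEF2C, a transcription factor of hypertrophy, read 10.01 and 10.01 in DZ, against 8.30 and 7.87 in MZ. It was thus already well expressed in MZ and 3.79-fold higher in DZ.

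Of the 12 members 10 had both DZ arrays above both MZ arrays, against 17.8% of all genes. Among those that did not pass, IHH, IBSP, SPP1 and DLX5 are given here, each with the larger difference in animal 1. IHH, the hedgehog ligand of prehypertrophic chondrocytes, read 8.47 and 4.51 in DZ, against 4.29 and 2.70 in MZ (limma adjusted p = 0.262). IBSP (bone sialoprotein) read 11.16 and 10.58 in DZ, against 4.16 and 7.13 in MZ (limma adjusted p = 0.140). SPP1 (osteopontin) read 11.68 and 11.13 in DZ, against 6.81 and 10.03 in MZ (limma adjusted p = 0.272). For both of these the DZ arrays were close together and the MZ arrays were about 3 log2 units apart. DLX5, a homeobox factor of bone and cartilage, read 8.66 and 8.52 in DZ, against 7.12 and 7.69 in MZ. VEGFA, the vascular growth factor made by hypertrophic chondrocytes, read 11.88 and 11.85 in DZ, against 12.38 and 12.07 in MZ, and HDAC4, a repressor of MEF2C and RUNX2, read 4.12 and 4.35 in DZ, against 4.54 and 4.89 in MZ. Neither of these 2 passed. The list's count of 5 was 2 without the animal block, without DZ replicate 1 or without DZ replicate 2, and 3 without MZ replicate 1.

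The enzymes and transporters that handle phosphate, pyrophosphate and mineral did not follow as a group. Of 16 measured genes 1 was higher (ALPL) and 0 lower, 15 did not pass, and the median was 0.14. The 1 call is 6.25% of the list, against 0.817% of all genes called higher. ENPP1, which makes pyrophosphate, an inhibitor of mineral, read 10.53 and 10.07 in DZ, against 10.39 and 10.12 in MZ. ANKH, which exports pyrophosphate or its precursor, read 8.37 and 9.66 in DZ, against 9.42 and 10.56 in MZ. MGP, the matrix Gla protein that inhibits calcification, read 12.29 and 9.77 in DZ, against 12.11 and 11.93 in MZ, the DZ array of animal 2 being the low one. SMPD3, a sphingomyelinase needed for cartilage and bone mineral, read 10.53 and 11.06 in DZ, against 10.02 and 9.08 in MZ. PHOSPHO1 and PHEX had no named probeset. Outside the list and chosen after its values were seen, PPA1, the cytosolic enzyme that splits pyrophosphate, was higher in DZ, at 11.64 and 9.43, against 7.71 and 6.91 in MZ (limma adjusted p = 0.0389).

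The osteoblast and bone matrix list shares IBSP, SPP1 and DLX5 with the hypertrophy list. Of its 13 measured genes 3 were higher (COL1A1, COL1A2 and DSPP), 0 were lower and 10 did not pass. That is 23.1%, against 0.817% of all genes called higher, and the median was 1.18. The count was 2 without the animal block, without DZ replicate 2 or without MZ replicate 1, and it was 1 when MZ replicate 2 was left out. BGLAP (osteocalcin), made by osteoblasts, read 7.98 and 10.03 in DZ, against 4.84 and 4.31 in MZ, and did not pass (limma adjusted p = 0.133). SPARC (osteonectin), which chondrocytes also make, read 13.51 and 13.49 in DZ, against 13.44 and 13.36 in MZ. SOST, the osteocyte marker sclerostin, read 3.48 and 3.60 in DZ, against 3.83 and 4.10 in MZ, and did not pass. The mean level of the 13 genes was 8.38 and 8.94 in DZ, against 5.45 and 5.76 in MZ.

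In the osteoclast list 2 of 9 measured genes were higher (ACP5 and the integrin ITGB3), 0 were lower and 7 did not pass. That is 22.2%, against 0.817% of all genes called higher, and the median was 1.01. The count was 1 without DZ replicate 1, MZ replicate 1 or MZ replicate 2, and the median was 0.45 without DZ replicate 1 and 0.30 in the dCHIP table. ITGB3, a subunit of the receptor by which osteoclasts hold bone, read 4.77 and 4.61 in DZ, against 2.61 and 2.09 in MZ. Over its 3 probesets, of which 2 were called, the differences ran from 0.61 to 2.57. MMP9, the gelatinase of osteoclasts, read 8.98 and 3.95 in DZ, against 2.95 and 2.96 in MZ, so that it was high on 1 array. CTSK, the osteoclast's collagenase cathepsin K, read 8.47 and 8.66 in DZ, against 8.16 and 8.44 in MZ, and ATP6V0D2, a proton pump subunit, read 3.32 and 3.24 in DZ, against 2.42 and 2.07 in MZ. Thus ACP5 was in the upper range of the array in both DZ samples, while CTSK was well expressed in both zones. The mean level of the 9 genes was 6.98 and 6.22 in DZ, against 4.82 and 4.83 in MZ. In bulk samples such as these, more cells of a type and more RNA per cell cannot be told apart, and the part of bone cells in the differences above was not tested.

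Of 18 measured endothelial genes 3 were higher in DZ (KDR, TEK and PLVAP), 0 were lower and 15 did not pass. That is 16.7%, against 0.817% of all genes called higher. The median was 1.28, and 13 of 18 had both DZ arrays above both MZ arrays, against 17.8% of all genes (19.5% had both below). KDR, a VEGF receptor, read 6.11 and 7.84 in DZ, against 2.28 and 1.88 in MZ (4.89, SE 0.52, limma adjusted p = 0.0238). TEK, the angiopoietin receptor, read 6.60 and 8.52 in DZ, against 4.39 and 4.69 in MZ. PLVAP, a protein of capillary openings, read 4.80 and 6.04 in DZ, against 2.35 and 2.56 in MZ. All 3 were higher in animal 2's DZ array than in animal 1's. PLVAP differed by 2.96 here but by 1.91 in the dCHIP table, and by 0.82 on the lower of its 2 probesets. PECAM1, an endothelial adhesion molecule, read 5.36 and 6.97 in DZ, against 3.08 and 2.77 in MZ, just short of the threshold (limma adjusted p = 0.0519), and its 3 probesets ran from −0.34 to 3.24. VWF, the endothelial clotting factor, read 3.28 and 4.83 in DZ, against 2.87 and 3.06 in MZ. The endothelial count was 0 without MZ replicate 2, 1 without DZ replicate 2, without MZ replicate 1 or without the animal block, 2 after median centring or quantile normalisation, 5 without DZ replicate 1 and 6 in the dCHIP table.

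Of 9 measured markers of pericytes and smooth muscle 1 was higher (11.1%, against 0.817% of all genes called higher). This was the adhesion molecule MCAM at 7.56 and 6.18 in DZ, against 3.53 and 3.38 in MZ (3.41, but 2.12 in the dCHIP table). RGS5, a pericyte gene, read 3.94 and 6.11 in DZ, against 1.85 and 1.48 in MZ, without passing (limma adjusted p = 0.0897), and ACTA2, the actin of smooth muscle, read 4.18 and 4.09 in DZ, against 3.46 and 3.83 in MZ.

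Of 19 measured leukocyte genes 6 were higher in DZ (BOLA-DRA, CD74, PTPRC, AIF1, LCP1 and C1QA), 0 were lower and 13 did not pass. That is 31.6%, against 0.817% of all genes called higher. The median was 0.89, and the mean level was 4.46 and 4.33 in DZ, against 3.08 and 3.02 in MZ. CD74, the chaperone of class II molecules, read 8.04 and 8.05 in DZ, against 4.10 and 4.06 in MZ, 15.7-fold higher. PTPRC (CD45), the common leukocyte phosphatase, read 4.84 and 4.92 in DZ, against 2.12 and 2.13 in MZ, but differed by −0.09 on the lowest of its 4 probesets and by 0.75 in the dCHIP table. AIF1, a calcium-binding protein of macrophages, read 4.95 and 4.70 in DZ, against 2.48 and 2.26 in MZ. The other 2 called members, LCP1 (plastin of leukocytes) and C1QA (a chain of complement C1q), read under 5 on both DZ arrays. CD14 and CD53, also on the list, differed by less than 1 in each animal. The leukocyte count was 1 without MZ replicate 2, 2 without DZ replicate 2 or MZ replicate 1, 3 without DZ replicate 1 and 4 without the animal block.

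Most markers of blood, marrow and fat cells were low in both zones. Of 7 measured red cell genes 0 passed, with a median of −0.12. HBB, the haemoglobin beta chain, read 2.67 and 2.51 in DZ, against 2.57 and 2.70 in MZ, and HBA read 4.14 and 3.50 in DZ, against 3.83 and 4.39 in MZ. Of 13 measured genes of lymphocytes, granulocytes, platelets and progenitors 0 passed (median −0.11). Of 9 fat cell genes 1 was higher (11.1%, against 0.817% of all genes called higher). It was CFD (complement factor D) at 5.33 and 5.43 in DZ, against 3.63 and 3.57 in MZ. FABP4, a lipid carrier that capillary endothelium also makes, read 7.81 and 9.92 in DZ, against 4.76 and 4.76 in MZ without passing (limma adjusted p = 0.0673). ADIPOQ, the adiponectin of mature fat cells, lay under 3 on all 4 arrays. Of 9 fibroblast and synovial genes 0 passed (median 0.40). Of 7 glial genes 1 was lower in DZ (14.3%, against 0.086% of all genes called lower). That gene was GFAP, an intermediate filament protein of glia, at 2.58 and 4.78 in DZ, against 6.15 and 8.04 in MZ. Its 2 probesets differed by −3.41 and −0.66, and only 1 was called.

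**Figure D3:**
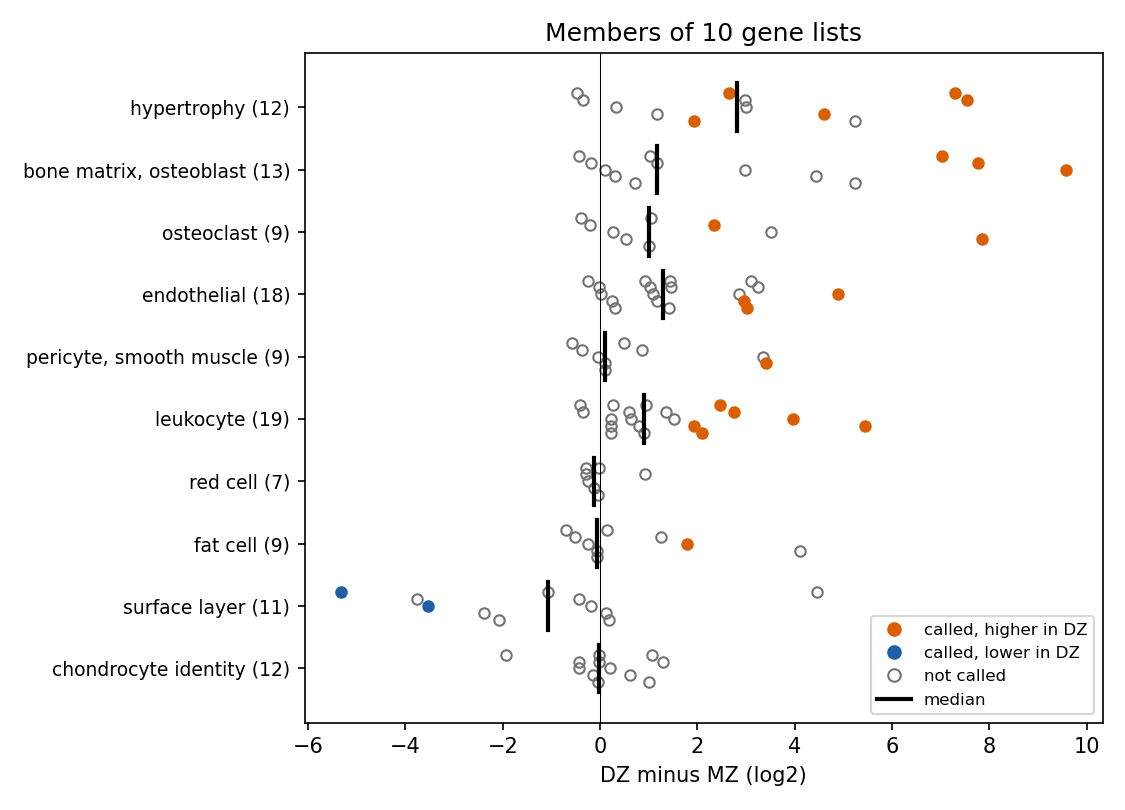
Difference DZ minus MZ (log2, x axis) of each measured gene in 10 gene lists, by the brightest probeset. Filled orange points passed the test as higher in DZ, filled blue points as lower, open points did not pass, and the black bar is the list's median. The hypertrophy, bone, osteoclast, endothelial and leukocyte rows extend to the right, and the red cell row stays near 0.

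By the smaller of the 2 animals' differences, the secreted products OGN and PRG4 led the genes lower in DZ. GFAP, given above, ranked next, ahead of THBS4. OGN (osteoglycin), a small leucine-rich proteoglycan, read 2.04 and 4.05 in DZ, against 8.83 and 10.23 in MZ (−6.48, SE 0.27, limma adjusted p = 0.00295). PRG4, which encodes the joint lubricant lubricin, read 4.28 and 6.82 in DZ, against 9.63 and 12.11 in MZ, with nearly the same difference in both animals (−5.35 and −5.29). THBS4, the matrix protein thrombospondin 4, read 6.53 and 6.81 in DZ, against 9.42 and 11.01 in MZ. Animal 2 was the higher one in both zones for OGN, PRG4 and THBS4. The symbols of the 12 genes lower in DZ on any probeset were OGN, PRG4, TPR, GFAP, THBS4, SULF2, PTHLH, LOC539596, TNC, BOC, EFEMP1 and LRIG3. LOC539596 read 8.97 and 7.32 in DZ, against 11.17 and 10.94 in MZ. The probeset named TPR, a nuclear pore protein in the annotation, read 3.87 and 5.96 in DZ, against 8.18 and 11.32 in MZ, which followed PRG4, and its identifier belongs to the same sequence cluster as those of PRG4, so its name is uncertain.

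Of 11 measured genes of the lubricating surface layer 2 were lower (PRG4 and THBS4), 0 were higher and 9 did not pass. That is 18.2%, against 0.086% of all genes called lower, and the median was −1.08. SOD3, the extracellular superoxide dismutase, read 4.37 and 8.51 in DZ, against 9.49 and 10.93 in MZ (limma adjusted p = 0.181). CLU (clusterin), a secreted chaperone, read 7.07 and 9.87 in DZ, against 10.03 and 11.70 in MZ (limma adjusted p = 0.246). THBS1 read 9.05 and 9.65 in DZ, against 11.38 and 11.47 in MZ (limma adjusted p = 0.126). DPT (dermatopontin), also on the list, went the other way, at 8.14 and 9.34 in DZ, against 4.63 and 3.92 in MZ (limma adjusted p = 0.270). PRG4 lost its call without the animal block and when any 1 of the DZ or MZ arrays was left out. THBS4 lost its call without the animal block, without DZ replicate 2 and without MZ replicate 2. Without DZ replicate 2, SOD3 was the 1 member called (−5.43).

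The PTHrP and hedgehog loop had members on both sides. Of 9 measured genes 1 was higher in DZ (PTH1R), 2 were lower (PTHLH and BOC) and 6 did not pass. That is 33.3% called in either direction, against 0.903% of all genes, and the median was −0.57. PTHLH, which encodes PTHrP, read 3.79 and 4.19 in DZ, against 7.33 and 6.55 in MZ, 7.75-fold lower (−2.95, SE 0.33, limma adjusted p = 0.0281). Its receptor PTH1R read 9.35 and 8.93 in DZ, against 6.83 and 6.14 in MZ, 6.29-fold higher (2.65, SE 0.32, limma adjusted p = 0.0340). Ligand and receptor thus stood in opposite order in both animals. BOC, a co-receptor that binds hedgehog ligands, read 5.16 and 6.23 in DZ, against 8.08 and 8.41 in MZ. The cell surface protein LRIG3, outside the list, read 6.01 and 6.42 in DZ, against 7.63 and 7.97 in MZ, 3.01-fold lower. PTCH1, the hedgehog receptor and a target gene of the pathway, read 3.86 and 4.09 in DZ, against 4.28 and 5.06 in MZ, and GLI3, a transcription factor of the pathway, 6.17 and 7.43 in DZ, against 7.48 and 8.29 in MZ. Neither passed. The 3 calls of this list were each lost when any 1 of the DZ or MZ arrays was left out.

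The other matrix lists held 0 to 3 calls each. The share called was 0.0% of the cartilage collagens. In the others it ran from 4.55% (collagen processing and cross-linking) to 16.7% (small leucine-rich proteoglycans), against 0.903% over all genes. These lists are short, so 1 call is a large share. Among all 40 lists, 18 had 1 or 2 calls, and 13 of these had none when at least 1 of the DZ or MZ arrays was left out. Of 12 measured cartilage collagens 0 passed (median 0.30). COL9A2, a chain of the collagen on the fibril surface, read 9.13 and 8.77 in DZ, against 7.73 and 7.71 in MZ (limma adjusted p = 0.234). Over all 31 measured collagen genes 3 were higher (COL1A1, COL1A2 and COL10A1) and 0 lower. The count was 1 without the animal block, DZ replicate 2 or MZ replicate 2, and 2 without DZ replicate 1 or MZ replicate 1. COL15A1, a basement membrane zone collagen, read 7.79 and 9.14 in DZ, against 10.02 and 11.40 in MZ (limma adjusted p = 0.0694). COL3A1, the fibril collagen that often accompanies type I, read 11.74 and 12.48 in DZ, against 12.95 and 13.26 in MZ, so that its order was opposite to that of the type I chains, without passing (limma adjusted p = 0.274).

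Of 12 measured small leucine-rich proteoglycans 1 was lower (OGN), 1 was higher and 10 did not pass. The higher one, LUM (lumican), read 9.77 and 9.73 in DZ, against 6.24 and 5.08 in MZ, 17.1-fold higher (limma adjusted p = 0.0481). In the aggrecan, hyaluronan and proteoglycan list 2 of 19 were higher (CD44 and the heparan sulfate proteoglycan GPC4) and 0 lower. GPC4 read 5.81 and 4.66 in DZ, against 3.60 and 1.87 in MZ, a difference of 2.50, but 1.61 in the dCHIP table. Of 16 genes of glycosaminoglycan synthesis and sulphation 1 was lower, SULF2, which removes sulfate from heparan sulfate, at 4.32 and 3.15 in DZ, against 6.95 and 6.70 in MZ.

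TNC (tenascin C), an adhesion-modulating matrix protein, was the 1 called member of 15 elastic fibre and tenascin genes, at 8.94 and 10.48 in DZ, against 12.21 and 12.68 in MZ, on its brightest probeset, with differences of −3.77 to −0.87 over its 3 probesets. EFEMP1 (fibulin 3) read 3.44 and 3.33 in DZ, against 5.77 and 5.93 in MZ on its brightest probeset, just short of the threshold (limma adjusted p = 0.0508), and passed on both of its others. Of 22 collagen processing and cross-linking genes 1 was higher, F13A1, the transglutaminase chain of factor XIII, at 10.95 and 10.44 in DZ, against 7.42 and 7.86 in MZ, 8.31-fold higher (limma adjusted p = 0.0200). TGM2, another transglutaminase, read 6.80 and 5.97 in DZ, against 2.16 and 2.65 in MZ (limma adjusted p = 0.103), and LOXL1, an elastin cross-linker, read 2.60 and 2.59 in DZ, against 5.76 and 4.98 in MZ (limma adjusted p = 0.121). Of 24 metalloproteinases, cathepsins and inhibitors 2 were higher (MMP13 and A2M) and 0 lower, and ADAMTS1, an aggrecan-cleaving protease, read 6.67 and 5.24 in DZ, against 2.74 and 2.62 in MZ without passing.

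The signalling lists given here held 0 to 2 calls each. The share called was 3.45% of the BMP and TGF-beta genes and 3.33% of the FGF, IGF and PDGF genes. It was 13.3% of the integrins, against 0.903% over all genes. Of 21 WNT pathway genes 0 passed, with a median of 0.11. WNT10B, a ligand that favours bone formation, read 6.80 and 3.88 in DZ, against 2.95 and 2.54 in MZ, AXIN2, a WNT target gene, read 3.27 and 4.33 in DZ, against 4.68 and 6.11 in MZ, and the antagonist FRZB read 10.98 and 10.28 in DZ, against 10.90 and 9.74 in MZ. Of 29 BMP and TGF-beta genes 1 was higher, BAMBI, a decoy receptor, at 7.43 and 8.11 in DZ, against 5.28 and 5.30 in MZ, 5.57-fold higher. BMPER, a secreted BMP modulator, read 4.18 and 5.21 in DZ, against 6.54 and 8.69 in MZ (limma adjusted p = 0.0694). Of 30 FGF, IGF and PDGF genes 1 was higher, IGFBP3, an IGF-binding protein, at 4.51 and 4.09 in DZ, against 2.42 and 2.25 in MZ. On its other probeset, which was not called, IGFBP3 differed by 1.22. Of 15 integrin subunits 2 were higher, ITGB3 and the collagen receptor subunit ITGA2, the second at 5.93 and 4.95 in DZ, against 3.90 and 3.27 in MZ. On the lower of its 2 probesets ITGA2 differed by 0.36.

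Guidance and vessel growth genes had 0 of 17 calls and a median of 0.60. With the MZ and DZ arrays alone 5 were higher and 2 lower in DZ, with the intensity trend 4 were higher, and 2 were higher in the dCHIP table. NRP1, a co-receptor of VEGF and semaphorins, read 5.44 and 6.94 in DZ, against 2.14 and 2.12 in MZ (limma adjusted p = 0.0638). CXCL12, a chemokine of marrow stroma, read 6.84 and 8.23 in DZ, against 3.77 and 3.76 in MZ (limma adjusted p = 0.103). PGF, a VEGF homologue, went the other way, at 5.91 and 8.07 in DZ, against 8.37 and 10.11 in MZ. Of 10 Notch genes 0 passed, HEYL, a Notch target, coming closest at 5.77 and 5.41 in DZ, against 3.18 and 3.84 in MZ (limma adjusted p = 0.0547).

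Lists of general cell function had small median differences. For 74 cytosolic ribosomal protein genes the median difference was −0.20, for 74 respiratory chain genes 0.24 and for 22 endoplasmic reticulum genes 0.18, each with 0 calls. Of 25 hypoxia and glycolysis genes 0 passed (median −0.11). The glucose transporter SLC2A3, read at 4.76 and 4.40 in DZ, against 8.14 and 6.41 in MZ, came closest (limma adjusted p = 0.0777), and CA9, a carbonic anhydrase induced by hypoxia, read 4.40 and 4.22 in DZ, against 6.58 and 5.70 in MZ. VEGFA, given above, is also on this list. Of 194 solute carriers 1 was higher, SLC44A2, a choline transporter, at 9.97 and 9.41 in DZ, against 7.81 and 7.43 in MZ. That is 0.515% of the list, below the 0.903% called over all genes. On its other probeset, which was not called, SLC44A2 differed by 1.22. Of 20 immediate early genes 1 was higher (5.0%), the Krueppel-like factor KLF6, at 8.51 and 7.46 in DZ, against 5.41 and 5.03 in MZ, 6.80-fold higher. Over its 5 probesets, of which 2 were called, the differences ran from 1.28 to 3.06. Of the 18 genes on the complement list, which does not hold the C1q chains, CFD alone passed (5.56%). The lists of serpins (9), inflammation (20), proliferation (26) and antioxidant genes (20) had 0 calls. The serpin list was matched by symbol and does not hold LOC100337325, given above as like pigment epithelium-derived factor. SERPINA14, a serpin outside that list and chosen after its values were seen, was higher in DZ on both of its probesets and read 6.63 and 6.24 in DZ, against 3.83 and 4.15 in MZ on the brighter one (limma adjusted p = 0.0257).

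Genes that MZ already expressed clearly and DZ expressed more were chosen after their values were seen, from the 21 with both MZ arrays more than 1 log2 unit above the lower quartile. TMEM119, a membrane protein of osteoblast differentiation, read 10.00 and 10.06 in DZ, against 8.17 and 8.04 in MZ. CPE, a prohormone-processing carboxypeptidase, read 8.37 and 8.07 in DZ, against 5.37 and 4.14 in MZ, and GLUL, glutamine synthetase, read 8.85 and 8.64 in DZ, against 6.24 and 6.45 in MZ. CST3 (cystatin C), an inhibitor of cathepsins, read 9.92 and 10.67 in DZ, against 7.53 and 8.69 in MZ. PLTP, a phospholipid transfer protein, read 7.24 and 7.75 in DZ, against 3.98 and 3.87 in MZ. In these 5 genes the zones did not overlap, and the mean differences ran from 1.93 for TMEM119 to 3.57 for PLTP.

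The 2 animals disagreed for some well-expressed genes. Among genes with a mean log2 value above 6, INHBA, EGR1, S100A2, FOSB and MMP3 were among the 6 whose DZ minus MZ differences were farthest apart between the animals. INHBA, an activin subunit, read 8.41 and 3.94 in DZ, against 5.80 and 7.43 in MZ, with opposite signs in the animals. EGR1, an immediate early transcription factor, read 8.01 and 8.13 in DZ, against 5.97 and 11.25 in MZ, so that the MZ arrays lay apart and the DZ arrays close together. S100A2, a calcium-binding protein, read 11.00 and 5.90 in DZ, against 5.42 and 5.03 in MZ, so that 1 array stood high. FOSB, which dimerises with JUN proteins, differed by 3.66 in animal 1 and −0.62 in animal 2, and the stromelysin MMP3 by 2.08 and −2.01. These values are a description with no test, as each animal has 1 array per zone.

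**Figure D4:**
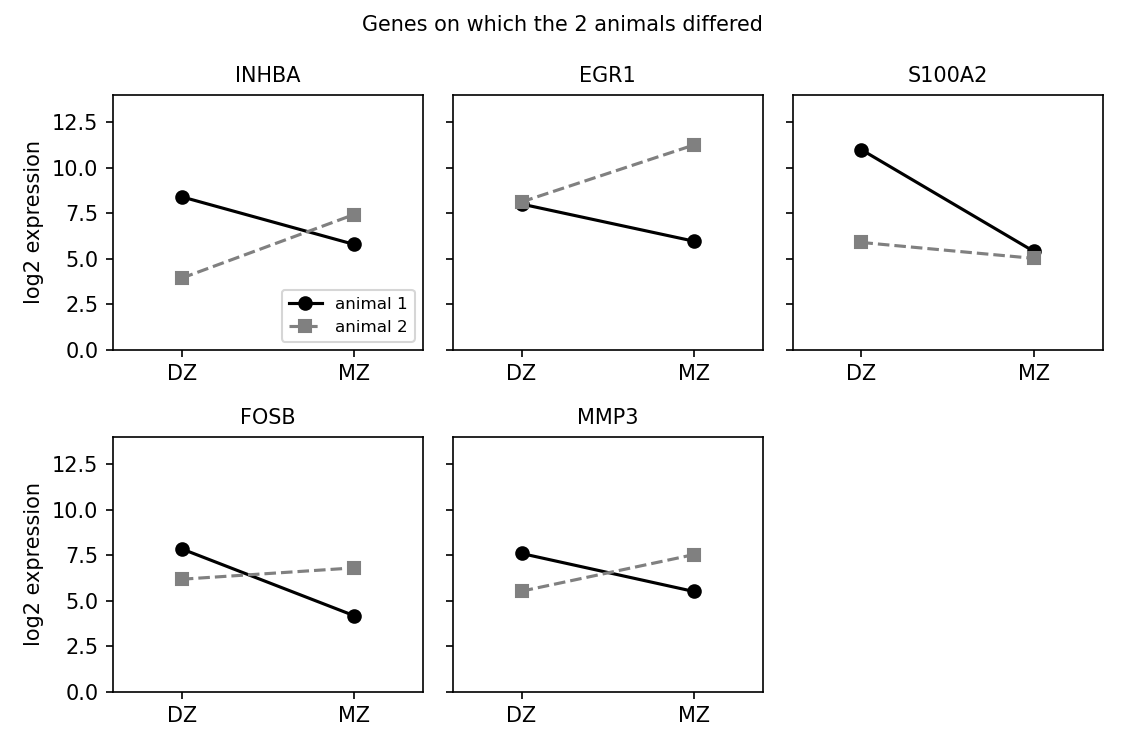
Log2 expression in DZ (left) and MZ (right) for 5 of the genes whose difference between the zones was farthest apart in the 2 animals, 1 panel each. Circles joined by a solid line are animal 1, squares joined by a dashed line animal 2. The S100A2 line drops steeply from left to right in animal 1 and little in animal 2, and the lines of INHBA, EGR1, FOSB and MMP3 slope in opposite ways.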

How the data were processed

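RNA of 3 zones from 2 animals was hybridised to 6 Affymetrix bovine arrays. Per the labels' protocols, 5 ng of total RNA per zone was amplified. The values tested are log2 expression per probeset, deposited by the authors as normalised, and RMA is named in the submitters' processing notes. Their range shows a log2 scale, and the background method and chip definition are not given in the sources used here. A second matrix deposited by the authors, named dCHIP, also holds log2 values and gave the gene symbols. Symbols stood for 17139 of 24016 probesets and 6877 had none. Synonyms of a RefSeq gene table (ARS-UCD2.0) renamed 961 probesets, and 10320 of 11626 symbols are in that table. No coordinates or sequences are given, as none were used here.

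The 112 control probesets were left out. With limma 3.58.1 in R 4.3.3 a linear model of zone and animal was fitted to the 6 arrays (residual degrees of freedom 2, prior 4.15), and DZ minus MZ was tested two-sided with moderated variances. Benjamini-Hochberg adjustment ran over all 24016 probesets, with calls at an adjusted p under 0.05. SE is the model's. Per the labels, arrays of 1 number share an animal, and across probesets the difference between the animals in DZ correlated with that in MZ at r = 0.346. The number of arrays limits the precision. The fit was tested on simulated data.

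A gene with several probesets stands by the brightest over the 6 arrays. The genes named are, among those with a descriptive symbol, the first 20 called higher and the called lower genes (9), ranked by the smaller of the 2 animals' differences; called members of 40 gene lists; some of up to 6 uncalled members of a list; 14 fixed genes; and the 6 on which the animals differed most. A further 2 genes that the rule on called genes or on the animals names are not reported here. Outside this rule, chosen after their values were seen, are ENPP1, SPARC, SOST, VWF, CD14, CD53, TPR, LOC539596, PPA1, TMEM119, CPE, GLUL, LOC100337325, SERPINA14, CST3, PLTP, RASIP1, ECSCR, LMO2 and THBD. The comparison, lists and members were chosen with earlier results of these data known. A fold is printed where the lower zone read over 1 log2 unit above the lower quartile on both of its arrays.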

Additional observations from a re-analysis of the deposited data

How the results depend on the processing

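The count of 169 called probesets (147 higher and 22 lower in DZ) was tried under 13 alternatives, and 0 of the 169 changed sign in any. All 169 had the same sign in both animals, which favours this. The MZ and DZ arrays alone and the settings without either SZ replicate are the same fit, since a single SZ array adds nothing to the spread. Without the animal (replicate) block 62 were called, 59 higher and 3 lower, all 62 among the 169. The dCHIP table gave 259 (214 higher, 45 lower), of which 133 were shared, the intensity trend 272 (226, 46), the MZ and DZ arrays alone 258 (207, 51), median centring 157 (136, 21) and quantile normalisation 156 (133, 23). With a mean log2 above 5, which left 10134 probesets, 141 were called, and the share higher in DZ was 62.4% against 87% without the filter (88 higher, 53 lower). Leaving out 1 replicate gave 12 to 258 calls, 11 to 207 higher and 1 to 51 lower. The causes of these changes were not tested. All alternatives that tested them called 9 of the 169, and the 7 that leave out no replicate called 55. 
Among the genes named, 0 of those called changed sign, while some uncalled ones did. In the dCHIP table ATP6V0D2 differed by −0.58 and INHBA by 0.05. Under quantile normalisation COL2A1 and ACAN differed by 0.0, HBB by 0.03 and MMP3 by −0.01. With 1 replicate left out, the difference ranged for COL2A1 from −0.14 to 0.12, for ACAN from −0.43 to 0.37, for COMP from −0.26 to 0.65, for ENPP1 from −0.25 to 0.34, for MGP from −2.22 to 0.23, for SPARC from 0.0 to 0.20, for HBB from −0.25 to 0.17 and for HBA from −0.85 to 0.28. For genes on which the animals differed it ranged from −2.80 to 1.92 (INHBA), −2.81 to 1.72 (EGR1), −0.49 to 3.53 (FOSB) and −1.57 to 1.65 (MMP3). With no detection calls, values near the lower quartile limit what dim genes can show.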

Other observations

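Further genes chosen after their values were seen, and known from endothelial cells, were higher in DZ. RASIP1, which shapes vessel lumens, read 5.18 and 5.86 in DZ, against 2.39 and 2.12 in MZ (limma adjusted p = 0.0149). Its difference was 3.26 here but 1.65 in the dCHIP table, and −0.08 on the lowest of its 3 probesets. ECSCR, an endothelial surface protein, read 5.49 and 6.75 in DZ, against 2.91 and 2.70 in MZ (limma adjusted p = 0.0318). Its probeset's identifier belongs to the same sequence cluster as those of COL1A1 probesets, so its name is uncertain. LMO2, a transcriptional co-regulator of endothelial and blood cells, read 4.61 and 5.96 in DZ, against 2.06 and 2.18 in MZ. THBD (thrombomodulin) read 4.40 and 5.06 in DZ, against 2.58 and 2.43 in MZ. The mean of THBD was 5.12 in SZ, above its 4.73 in DZ. For RASIP1, ECSCR and LMO2 the SZ means ran from 2.12 to 3.20. All 4 were higher in the DZ array of animal 2 than in that of animal 1, and their MZ arrays lay close to the lower quartile.

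In some lists the signed difference DZ minus MZ was mostly higher in the same animal. Of 26 proliferation genes 1 had the higher signed difference in animal 2, against 51.6% of all genes. The list's mean level was 5.29 and 4.07 in DZ, against 4.28 and 4.04 in MZ. TOP2A, a topoisomerase of dividing cells, read 8.79 and 6.24 in DZ, against 6.46 and 4.69 in MZ (limma adjusted p = 0.141). UBE2C, a ubiquitin-conjugating enzyme of mitosis, read 7.37 and 4.25 in DZ, against 4.23 and 3.32 in MZ (limma adjusted p = 0.361). Of 18 endothelial genes 15 had the higher signed difference in animal 2, and of 74 ribosomal protein genes 57. The median difference of the ribosomal genes was −0.40 in animal 1 and −0.03 in animal 2. By size it was thus the larger in animal 1. Each animal has 1 array per zone, so these counts describe the arrays and their cause was not tested.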
